A study of Mus musculus with 16 samples.

Results

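miR-106b, miR-93 and miR-25 are the 3 microRNAs (miRNAs) of the miR-106b-25 cluster, and their levels were measured in 16 mouse carotid arteries, uninjured or taken at 1 of 4 times after wire injury. They were chosen by name (mmu-miR-106b, mmu-miR-93 and mmu-miR-25), as 3 of the 611 mouse miRNAs on the array. The rule did not use their signals, but earlier results of these data were known when they were chosen. All 3 were well above background on all 16 arrays and were among the 321 miRNAs tested. In the main processing miR-93 was higher than in uninjured arteries at day 1 (1.84-fold), day 7 (1.77-fold) and day 28 (1.49-fold). No difference of miR-106b or miR-25 passed the test on its brighter probe in that processing. The call at day 7 was kept under 14 of 15 other ways of processing, that at day 1 under 10 of 15 and that at day 28 under 6 of 16. These ways were not independent, since some used the same miR-93 values with another model or another set of tested miRNAs. With 2 other scalings the day 1 difference of miR-93 fell from 0.88 to 0.24 and 0.23 on the log2 scale. The dimmer probe of miR-106b, unlike the brighter one, was higher at day 1 and day 28.

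The arteries came from female C57BL/6 mice without apolipoprotein E (ApoE-/-), which are prone to atherosclerosis, all on a western-type diet. A wire passed through the artery strips its endothelium and injures the wall, after which a new inner layer, the neointima, grows. Uninjured arteries (n = 3) served as the control for 3 arteries injured 1 day earlier, 3 injured 7 days earlier, 3 injured 14 days earlier and 4 injured 28 days earlier. Mice of the day 1 group were labelled as 8 weeks old and those of the other groups as 6 to 8 weeks. The study states 3 to 4 animals for each group, with 1 array per artery sample. Whether an uninjured artery came from a mouse whose other carotid was injured is not given in the sources used here, nor is any pooling of animals.

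The 3 hairpins of the cluster lie in an intron of Mcm7, which encodes a subunit of the helicase that opens DNA for replication, and are made from the same primary transcript. The host gene is driven by E2F factors in dividing cells, and the cluster is known for lowering cell-cycle inhibitors such as p21 (miR-106b and miR-93) and p57 or the pro-apoptotic protein Bim (miR-25). In the artery wall, smooth muscle cells leave their resting state and divide after injury, and leukocytes enter the wall. A miRNA recognises its targets mainly through its seed, bases 2 to 8 from the 5′ end.

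The mature sequences are given first because the seed divides the cluster into 2 kinds of miRNA. They are written 5′ to 3′ from RefSeq (GRCm38.p6), with the seed in capitals.
miR-106b: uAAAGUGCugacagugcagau
miR-93: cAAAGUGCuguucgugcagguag
miR-25: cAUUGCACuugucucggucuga
miR-106b and miR-93 share the seed AAAGUGC, whereas miR-25 has AUUGCAC. The first is also the seed of miR-17, miR-20a, miR-20b and miR-106a, which belong to the paralogous clusters on chromosomes 14 and X. The second is that of miR-92a of those clusters.
miR-17: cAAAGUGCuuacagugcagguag
miR-20a: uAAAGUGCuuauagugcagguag
miR-20b: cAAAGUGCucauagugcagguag
miR-106a: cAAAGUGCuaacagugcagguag
miR-92a: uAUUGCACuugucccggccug
The last 10 bases of miR-93 (gugcagguag) are also the last 10 of miR-17, miR-20a, miR-20b and miR-106a. Over its 23 bases miR-93 differs from miR-20b at 3 positions and from each of the other three at 4 positions. miR-106b, with 21 bases, ends differently and shares no last base with any of them, so its differing positions were not counted. Its longest shared run is 9 bases with miR-17, miR-20a and miR-106a and 8 with miR-20b, against 10 for miR-93 with each. Which of miR-93 and miR-106b is closer to these relatives is therefore not read from the ends. miR-25 and miR-92a share a run of 12 bases that holds the seed.

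All 3 hairpins are on the minus strand of chromosome 5 and inside the span of Mcm7 (chr5:138164583-138172111, GRCm38.p6). Mir106b comes first in the direction of transcription (chr5:138165737-138165818), then Mir93 (chr5:138165523-138165610) and Mir25 (chr5:138165321-138165404). The gaps between them are 126 and 118 bases, and all 3 fit into 498 bases. The hairpins show from which arm each measured miRNA comes, with the measured strand in capitals.
Mir106b: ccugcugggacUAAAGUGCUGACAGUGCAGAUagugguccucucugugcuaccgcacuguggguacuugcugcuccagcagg
Mir93: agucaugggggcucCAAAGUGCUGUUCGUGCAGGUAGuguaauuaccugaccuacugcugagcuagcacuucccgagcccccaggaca
Mir25: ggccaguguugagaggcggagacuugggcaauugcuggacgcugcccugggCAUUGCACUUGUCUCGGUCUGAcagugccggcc
The measured strand is the 5′ arm for miR-106b and miR-93 and the 3′ arm for miR-25. The opposite strands miR-106b* and miR-93* were well above background on 0 of 16 arrays, with highest probe means of 3.81 and 4.05 intensity units. miR-25* has no probe on this array.

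Signal was expressed as log2 of the intensity of a miRNA's brighter probe divided by the 75th percentile of the 395 probes detected on all arrays, so that 0 is the level of that percentile. Before scaling, the brighter probe of miR-106b ran from 1120 to 3719 intensity units over the 16 arrays, that of miR-93 from 186 to 995 and that of miR-25 from 713 to 2799. The percentile itself ran from 401 to 624.1 units in the uninjured group and from 483.8 to 1432 in the injured groups, and 251 to 335 miRNAs were well above background on an array. Scaled values of replicate arrays correlated at 0.929 or more. Uninjured and day 14 arrays were on slide 2, day 1 and day 7 arrays on slide 1, and day 28 arrays on both (2 on each). Slide and day can therefore be separated only through the day 28 arrays.

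miR-93 shares its seed with miR-106b and was the member with the clearest response. Its scaled log2 signal was -1.11, -0.79 and -1.46 in the 3 uninjured arteries. It was -0.32, -0.27 and -0.13 on day 1 and -0.29, -0.20 and -0.39 on day 7. The day 14 arteries gave -0.62, -0.88 and -0.77, and the 4 day 28 arteries -0.79, -0.29, -0.50 and -0.59. All arrays of day 1, day 7 and day 28 were above all uninjured arrays, although the lowest day 28 array equalled the highest uninjured one to the second decimal. Day 14 overlapped the uninjured group. Every day 14 array was below every day 7 array, as held for 23.1% of the tested miRNAs.

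The rise of miR-93 was 0.88 ± 0.17 (log2, SE) at day 1 (limma adjusted p = 0.00139), 0.83 ± 0.17 at day 7 (adjusted p = 0.00111) and 0.58 ± 0.16 at day 28 (adjusted p = 0.0159). At day 14 the difference was 0.36 ± 0.17, with an adjusted p of 0.109 and a 95% interval from 0.00 to 0.72. So 1 of the 3 members was called at day 1, where 32.4% of the 321 tested miRNAs were called in either direction and 19.6% were called higher. At day 7 it was again 1 of 3, against 49.8% (27.4% higher), and at day 28 1 of 3, against 26.2% (16.8% higher). At day 14 it was 0 of 3, against 39.3% (20.2% higher). Complete separation above the uninjured group, as miR-93 had on 3 days, was seen for 31.8% of the tested miRNAs at day 1, 29.6% at day 7 and 20.9% at day 28 (27.4% at day 14). A rise was therefore common among the tested miRNAs.

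**Figure D1:**
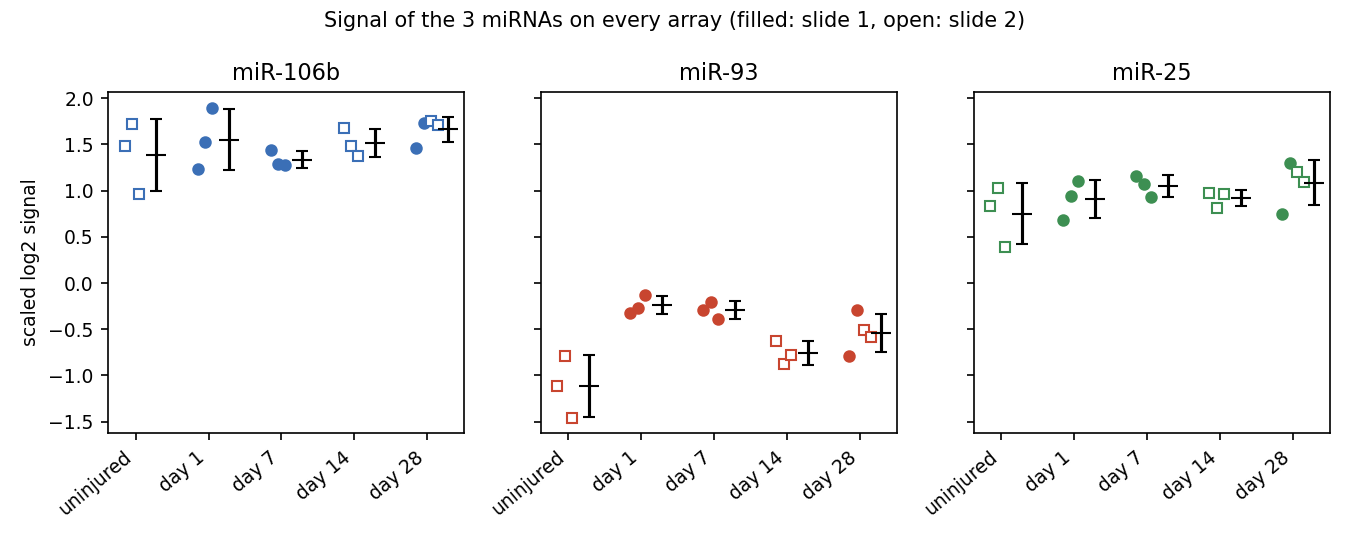
Scaled log2 signal (vertical axis, brighter probe) of miR-106b, miR-93 and miR-25 on each of the 16 arrays, by group. Filled circles are arrays of slide 1, open squares arrays of slide 2, and the black mark and bar are the group mean and SD. miR-93 runs from -1.46 to -0.79 in uninjured arteries and from -0.39 to -0.13 at days 1 and 7, whereas the groups of miR-106b overlap.

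Between successive days no difference of miR-93 passed the test in the 5-group model. From day 7 to day 14 it differed by -0.47 ± 0.17 (limma adjusted p = 0.0865), where 10.3% of the tested miRNAs were called. That p was 0.0364 with only these 2 groups in the model and 0.0476 without the third uninjured array. From day 1 to day 7 the difference was -0.05 ± 0.17 (adjusted p = 0.823, with 43.3% called) and from day 14 to day 28 it was 0.22 ± 0.16 (adjusted p = 0.423, with 15.3% called). In order of level, the group means were thus -0.24 (day 1), -0.29 (day 7), -0.54 (day 28), -0.76 (day 14) and -1.12 (uninjured). Of the neighbours in this order, day 1 and day 7, day 28 and day 14, and day 14 and uninjured did not pass the test. Day 7 against day 28 was not tested, and their arrays overlapped (-0.39 to -0.20 and -0.79 to -0.29).

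The rise at day 1 depended on how the arrays were scaled. At day 1 the median of all tested miRNAs was already 0.24 above the uninjured group, and it was -0.31 when the percentile was taken over all mouse probes. With that scaling 17 miRNAs were called higher and 95 lower, in place of 63 and 41, and miR-93 differed by 0.24 (limma adjusted p = 0.484). With median scaling the split was 17 and 103, the median -0.34 and the difference of miR-93 0.23 (adjusted p = 0.419). Quantile normalization gave 24 higher and 71 lower and a difference of 0.72 for miR-93 (adjusted p = 0.0139). Taken relative to the median of all tested miRNAs, miR-93 was 0.64 higher at day 1 in the main scaling and 0.55, 0.56 and 0.84 higher in these others, in the order given. At day 7 the relative difference was 0.82, and 0.78, 0.79 and 0.75 in the others, where miR-93 was called each time. At day 28 the call was lost with all 3 of these scalings, at differences of 0.51, 0.30 and 0.36 (adjusted p = 0.144, 0.282 and 0.182).

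**Figure D2:**
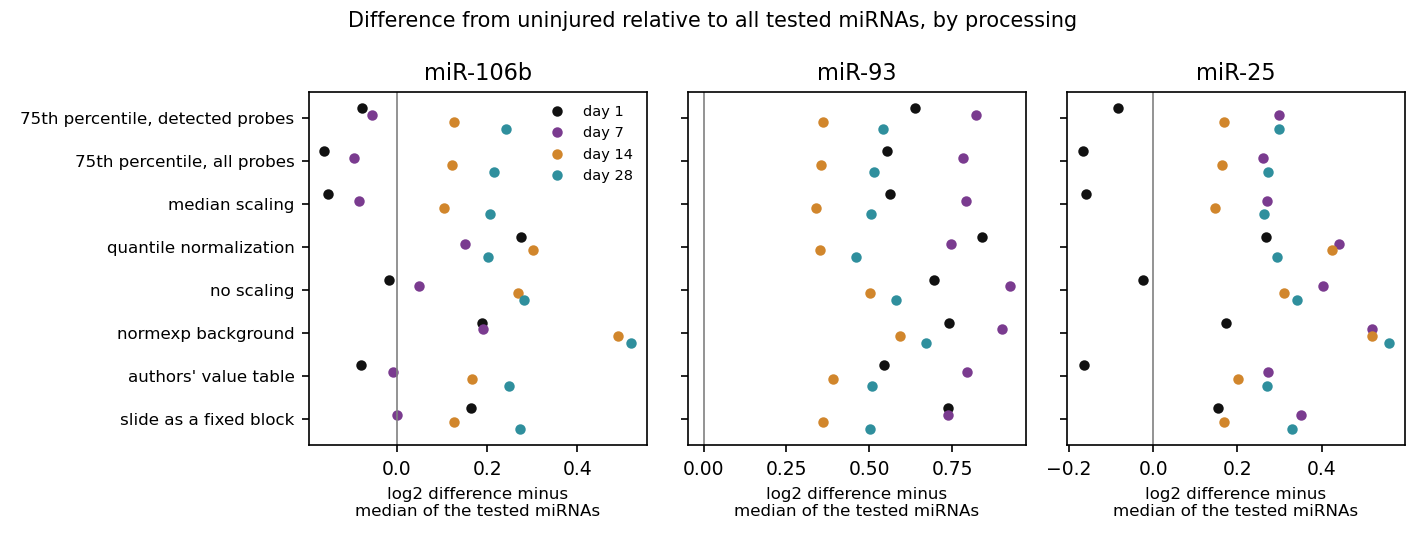
Difference from uninjured of each member minus the median difference of all tested miRNAs (horizontal axis, log2) under 8 ways of processing (vertical axis), with a colour for each day. All values of miR-93 lie above 0, between 0.34 and 0.93, whereas those of miR-106b and miR-25 lie on both sides of 0 at day 1.

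With slide as a fixed block the estimates of miR-93 hardly moved, at 0.87, 0.82 and 0.57 for day 1, day 7 and day 28, but the adjusted p became 0.0725, 0.0414 and 0.0642 in limma. Within slide 2 alone, the 2 day 28 arrays were 0.57 above the uninjured ones (limma adjusted p = 0.104). Without the third uninjured array the day 28 difference was 0.41 (adjusted p = 0.0745), and without the second the day 14 difference was 0.53 (adjusted p = 0.0280). The slide term of miR-93 itself was -0.01 (unadjusted p = 0.981).

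miR-106b, the first hairpin of the transcript, had overlapping groups on its brighter probe. Its scaled log2 signal was 1.48, 1.72 and 0.96 without injury, 1.23, 1.52 and 1.90 on day 1, and 1.44, 1.29 and 1.27 on day 7. On day 14 it was 1.68, 1.48 and 1.38, and on day 28 1.46, 1.73, 1.75 and 1.71. The third uninjured array was the lowest of all 16 for miR-106b, and it was also the lowest for miR-93 and miR-25. Differences from uninjured were 0.16 ± 0.20, -0.05 ± 0.20, 0.13 ± 0.20 and 0.28 ± 0.19 at days 1, 7, 14 and 28 (limma adjusted p = 0.529, 0.866, 0.710 and 0.325). Their 95% intervals ran from -0.27 to 0.59, -0.48 to 0.38, -0.30 to 0.56 and -0.13 to 0.68. The sign on each day changed under at least 1 way of processing, for example to -0.47 at day 1 with the percentile over all probes and to 0.10 at day 7 with quantile normalization.

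miR-25, which carries the miR-92 seed, likewise had no day that passed the test on its brighter probe in the main scaling. It measured 0.83, 1.03 and 0.39 without injury, 0.69, 0.94 and 1.10 on day 1, and 1.16, 1.07 and 0.93 on day 7. The day 14 values were 0.98, 0.82 and 0.97 and those of day 28 were 0.74, 1.30, 1.21 and 1.10. Every injured group overlapped the uninjured range. The differences were 0.16 ± 0.18, 0.30 ± 0.18, 0.17 ± 0.18 and 0.33 ± 0.17 (limma adjusted p = 0.515, 0.201, 0.545 and 0.172), and the 95% interval at day 28 ran from -0.04 to 0.71. With the percentile over all probes the sign at day 1 turned, to -0.48, and with median scaling also that at day 14, to -0.077. Between successive days the differences of miR-106b and miR-25 were between -0.22 and 0.18, with limma adjusted p from 0.388 upward.

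Each member had a second, dimmer probe, and these gave another picture for miR-106b. Its dimmer probe read 189 to 766 intensity units and was well above background on all 16 arrays. It was higher by 0.71 ± 0.18 at day 1 (limma adjusted p = 0.00973) and by 0.54 ± 0.17 at day 28 (adjusted p = 0.0328), with differences of 0.44 ± 0.18 at day 7 (adjusted p = 0.0578) and 0.23 ± 0.18 at day 14. On the same arrays the brighter probe exceeded the dimmer one by 2.64 ± 0.07 (log2, SD, n = 3) without injury. The excess was 2.09 ± 0.11, 2.14 ± 0.04 and 2.54 ± 0.06 on days 1, 7 and 14 (n = 3 each) and 2.38 ± 0.16 on day 28 (n = 4). The 2 probes of miR-106b therefore did not follow each other across the groups, by more than the spread between arrays at day 1 and day 7. Neither probe was saturated on any array. Which of them follows miR-106b more closely was not tested, and the probe sequences were not used here.

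The dimmer probe of miR-93 was well above background on 0 of 3 uninjured arrays (8.51 to 13.6 intensity units) and on 13 of 13 injured arrays. Its uninjured level was therefore not measured, and it gives no fold and no check of the brighter probe against that group. Among the 4 injured groups the gap between the probes of miR-93 was 4.35 to 4.50 in the group means. For miR-25 the dimmer probe, at 26.4 to 122 units, differed from uninjured by 0.47, 0.52, 0.32 and 0.46 at days 1, 7, 14 and 28, each more than the brighter probe and none past the test (limma adjusted p = 0.113, 0.0595, 0.262 and 0.105). The brighter probe of miR-25 exceeded its dimmer one by 4.76 ± 0.01 (log2, SD, n = 3) without injury. On days 1, 7 and 14 (n = 3 each) the excess was 4.45 ± 0.10, 4.55 ± 0.02 and 4.60 ± 0.08, wholly below the uninjured arrays. It was 4.63 ± 0.14 on day 28 (n = 4), which overlapped them. The probes of miR-25 thus did not fully follow each other either. The comparison of the dimmer probes was chosen after the data had been seen.

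**Figure D3:**
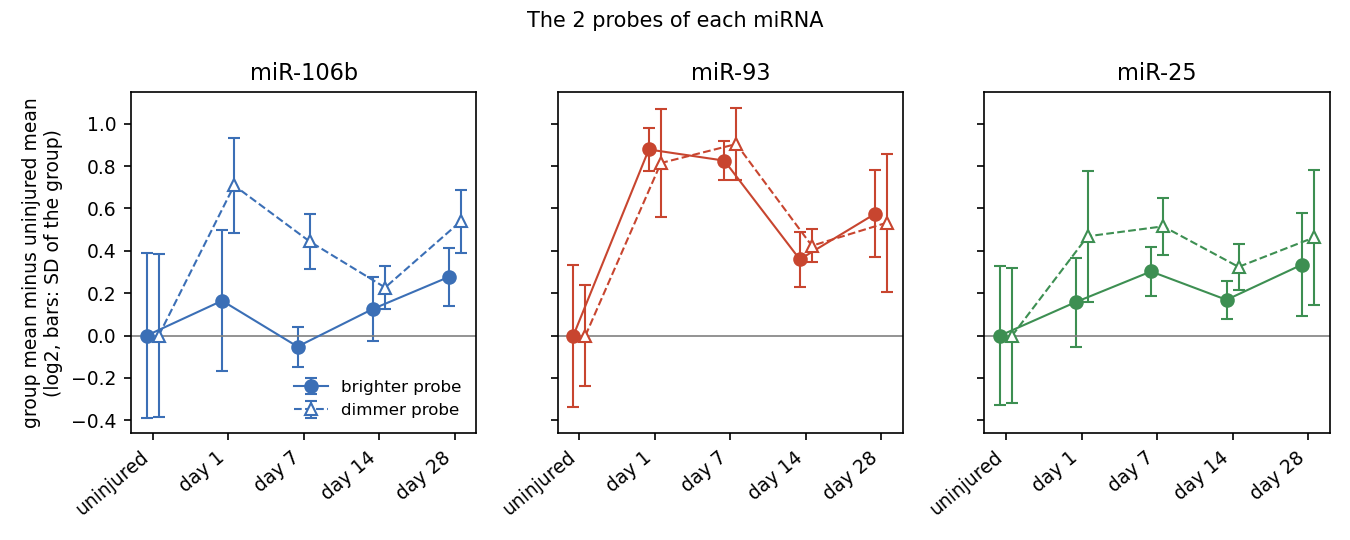
Group mean minus uninjured mean (vertical axis, log2; bars are the SD of each group's arrays) for the brighter probe (filled circles, solid line) and the dimmer probe (open triangles, dashed line) of each member. The probes of miR-106b part at day 1 (0.16 and 0.71) and day 7 (-0.05 and 0.44), while the dimmer probe of miR-93 was not well above background on any uninjured array, so its baseline in this plot was not measured.

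Because the 3 miRNAs come from 1 transcript, their differences within an array ask whether they changed unequally, independent of the scaling between arrays. On the brighter probes miR-106b exceeded miR-93 by 2.50 ± 0.09 (log2, SD, n = 3) without injury. After injury it did so by 1.79 ± 0.24, 1.63 ± 0.12 and 2.27 ± 0.11 on days 1, 7 and 14 (n = 3 each) and by 2.21 ± 0.12 on day 28 (n = 4). All 13 injured arrays (1.49 to 2.36) lay below all 3 uninjured arrays (2.42 to 2.59). Injured minus uninjured was -0.51 (two-sided exact permutation test over 560 arrangements, p = 0.0161, adjusted over the 3 pairs 0.0241). Within slide 2, with 5 injured arrays, it was -0.23 (exact p = 0.0179, the smallest its 56 arrangements allow, adjusted 0.0268).

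miR-93 was below miR-25 by the same kind of measure, and less so after injury. miR-93 minus miR-25 was -1.87 ± 0.06 without injury and -1.15 ± 0.12, -1.35 ± 0.09, -1.68 ± 0.07 and -1.63 ± 0.08 on days 1, 7, 14 and 28. Again all 13 injured arrays were on one side of the uninjured ones, with a difference of 0.41 (exact permutation p = 0.0125, adjusted 0.0241). Within slide 2 the difference was 0.18 (exact permutation p = 0.0179, adjusted 0.0268). How often other pairs of tested miRNAs separate in this way was not counted. Neither separation is therefore read as particular to this cluster. A level of one probe is not comparable with that of another, so only the change of these differences between groups is read here. miR-106b minus miR-25 changed by -0.11 (exact permutation p = 0.345, adjusted 0.345). For that pair only day 7 (0.28 ± 0.07) was wholly apart from the uninjured arrays (0.64 ± 0.06), which was not tested by itself. With the dimmer probe of miR-25 alone, miR-106b minus miR-25 changed by -0.30 (exact permutation p = 0.025, unadjusted). With the dimmer probe of miR-106b alone it changed by 0.24 (exact permutation p = 0.0929, unadjusted). The sign of this pair therefore depended on the probe.

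These unequal changes depended on the probe used. With the dimmer probe of miR-106b and the brighter ones of the other two, miR-106b minus miR-93 changed by -0.17 (exact permutation test, adjusted p = 0.127). miR-93 minus miR-25 with the dimmer probe of miR-25 alone changed by 0.21 (exact p = 0.0946). Pairs with the dimmer probe of miR-93 are not read, since its uninjured level was not measured. The pair tests also lost their call with normexp background correction, at -0.36 and 0.27 (adjusted p = 0.0723 for both), and without any 1 of the 3 uninjured arrays, where the differences stayed between -0.56 and -0.47 and between 0.37 and 0.43 and the adjusted p between 0.0571 and 0.1.

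**Figure D4:**
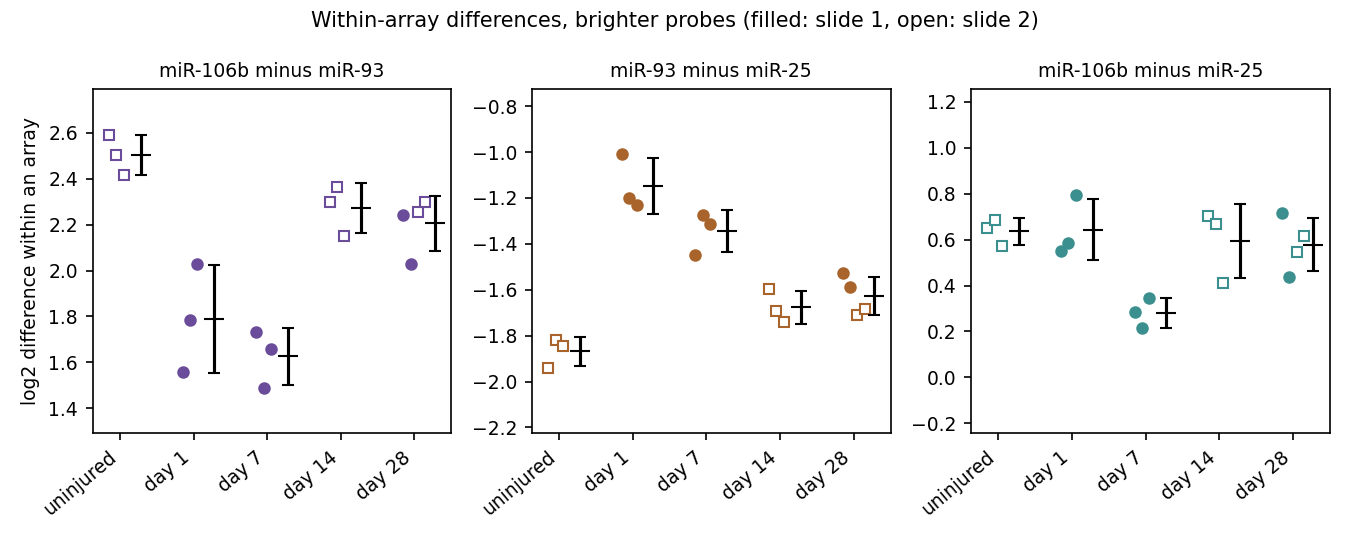
Log2 difference between 2 members on the same array (vertical axis, brighter probes; each panel spans the same range) by group. Filled circles are arrays of slide 1, open squares arrays of slide 2, black marks and bars the mean and SD. miR-106b minus miR-93 is 2.42 to 2.59 in uninjured arteries and 1.49 to 2.36 in injured ones.

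The relatives in the paralogous clusters were described from lists of fixed names. Of the 4 other miRNAs with the seed of miR-106b and miR-93, miR-20a and miR-20b were tested. miR-17 was well above background on 0 of 16 arrays, and miR-106a has no probe. The opposite strand of the miR-17 hairpin, miR-17*, is outside these lists and was detected on every array. It was higher by 1.01, 0.99, 0.68 and 0.81 at days 1, 7, 14 and 28 (limma adjusted p = 0.00235, 0.00145, 0.0211 and 0.00862). Whether the miR-17 probe reports its miRNA was not tested, so its signal is not read as absence. miR-20b was higher at day 1, by 0.84 ± 0.26 (limma adjusted p = 0.0256), and differed by 0.62, 0.19 and 0.56 at days 7, 14 and 28 without passing the test. With slide as a block the day 1 difference of miR-20b was 0.24 (adjusted p = 0.770). miR-20a was higher at day 14, by 0.57 ± 0.19 (adjusted p = 0.0339), and differed by 0.35, 0.25 and 0.28 on the other days. The median of the 2 was 0.59, 0.43, 0.38 and 0.42 over the 4 days, against medians of 0.24, 0.00, 0.00 and 0.03 over all tested miRNAs.

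Of the 5 other miRNAs with the seed of miR-25, only miR-92a was tested. It differed by 0.25, 0.09, 0.03 and 0.29 at days 1, 7, 14 and 28, and none passed the test (limma adjusted p from 0.373 to 0.954). miR-363 was well above background on 1 array and miR-92b, miR-32 and miR-367 on 0 of 16. miR-25 and miR-92a were thus the measured carriers of this seed, and neither had a called difference from uninjured in the main scaling.

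The remaining kinds of miRNA in the paralogous clusters, miR-18 and miR-19, have no counterpart in the miR-106b-25 cluster. miR-18a, miR-19a and miR-19b were tested, and 3 of 3 were higher at days 1, 7 and 14 and 2 of 3 at day 28, when 19.6%, 27.4%, 20.2% and 16.8% of all tested miRNAs were called higher. miR-19a rose most at day 1, by 1.80 ± 0.22 (3.49-fold, limma adjusted p = 4.7e-05), and miR-19b rose by 1.16 ± 0.14. miR-18a rose by 1.23 ± 0.18 at day 7. With slide as a fixed block miR-19a differed by 1.18, 1.11, 0.69 and 0.59 at days 1, 7, 14 and 28. Its day 28 call was then lost (limma adjusted p = 0.0520), while miR-18a and miR-19b kept their calls. Side by side, miR-93 with 0.88 at day 1 lay between miR-20b (0.84) and miR-18a (0.98), while miR-106b and miR-25 (0.16 each) lay below miR-92a (0.25). These differences share the same 3 uninjured arrays.

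**Figure D5:**
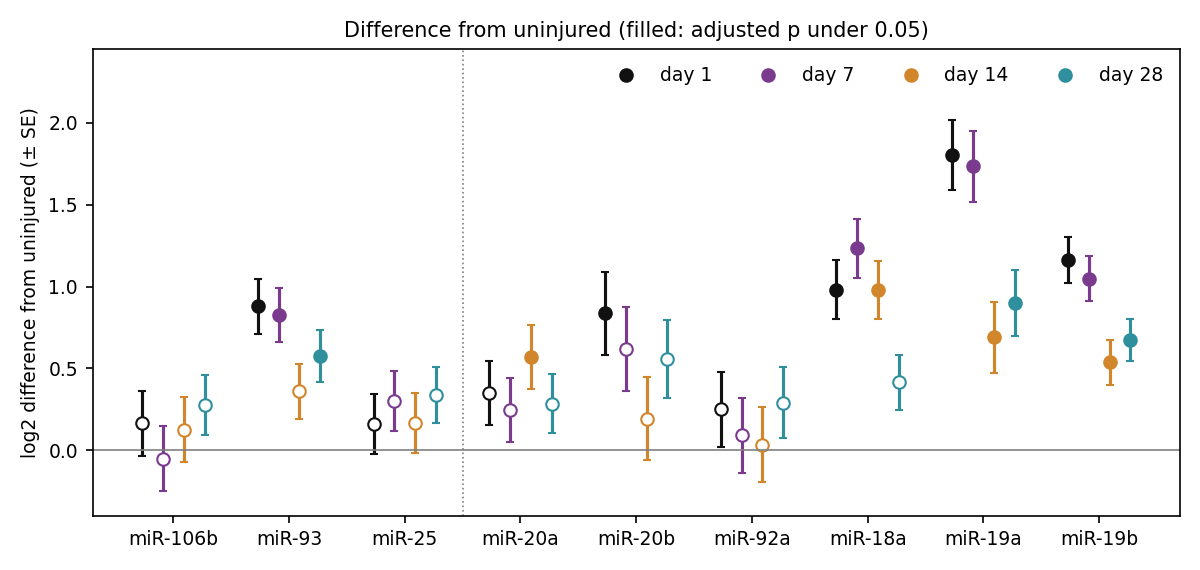
Log2 difference from uninjured (vertical axis, bars are the SE from limma) at days 1, 7, 14 and 28 for the 3 members, left of the dotted line, and the 6 tested relatives. Filled points passed an adjusted p of 0.05. In this model without a slide term, miR-93 passed at days 1, 7 and 28 and miR-19a and miR-19b on all 4 days.

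The miRNAs most like each member over the 16 arrays were listed among the 219 detected on every array, by Pearson correlation of scaled log2 values. They describe these arrays, whose values share the groups, the slides and the scaling, and carry no test. For miR-93 they were miR-17* (r = 0.92), miR-19b (0.91), miR-19a (0.91), miR-142-5p (0.89) and miR-142-3p (0.88). The first 3 come from the miR-17-92 cluster and its paralogs, and the miR-142 strands are made in blood cells of all lineages. For miR-106b they were miR-25 (0.75), miR-15b (0.68), miR-486 (0.68), miR-451 (0.65) and miR-484 (0.63). miR-486 and miR-451 are abundant in red cells. For miR-25 they were miR-15a (0.83), miR-15b (0.82), miR-16 (0.75), miR-106b (0.75) and miR-130b (0.72). miR-93 correlated with miR-25 at 0.68 and with miR-106b at 0.40, where it ranked as the 13th most like.

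Markers of cell types also differed between the groups: leukocyte miRNAs on all 4 days, and smooth muscle miRNAs at days 7, 14 and 28 but not at day 1. The summed scaled signal of 5 leukocyte miRNAs (miR-223, both miR-142 strands, miR-150 and miR-155) was 1.61 to 1.97 without injury and 25.6 to 28.3, 13.1 to 17.4, 10.3 to 16.2 and 8.57 to 11.9 on days 1, 7, 14 and 28, and 4 of 5 were called higher on each day, against the shares called higher given above. miR-150 was not well above background on any uninjured array. The sum of the smooth muscle miRNAs miR-143 and miR-145 was 3.53 to 6.37 without injury and 2.94 to 5.13, 1.54 to 1.80, 1.05 to 1.10 and 1.89 to 2.08 on the same days, and 2 of 2 were called lower at days 7, 14 and 28, when 22.4%, 19% and 9.35% of all tested miRNAs were. Their part in the differences of the cluster was not tested. In RNA of a whole artery, a different share of cells of a type and a different level per cell cannot be told apart.

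The erythroid miRNAs miR-451, miR-144 and miR-486, which mark blood left in the vessel, summed to 16.3 to 42.9 without injury and to 15.1 to 63.0 after it, and 0 of 3 were called on any day by limma. Of 2 endothelial strands, miR-126-5p was not well above background on any array of the uninjured and day 1 groups, and miR-126-3p was called higher at day 7 only. Of 4 striated muscle miRNAs, 0 were called at day 1, and 1, 2 and 3 were called lower at days 7, 14 and 28. Of 2 tested neuronal miRNAs, 0, 2, 2 and 1 were called lower at days 1, 7, 14 and 28. The shares of all tested miRNAs called lower at days 7, 14 and 28 were, as above, 22.4%, 19% and 9.35%.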

How the data were processed

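Each of 16 samples was hybridized to 1 Agilent mouse miRNA array (Sanger release 12, 1 colour). Per the labels, 700 ng of total RNA from a miRNeasy kit was labelled with Cy3-pCp. Per the file headers, Agilent Feature Extraction 9.5.1.1 made the deposited files, which hold the intensity of each of 13715 features with its background handled upstream. The authors' deposited value table holds 610 miRNAs as linear intensity. Of its values, 99.9% matched the total gene signal of the scanner files to within 0.1%. Its column medians, 3.81 to 16.6, were not brought to a common centre.

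Processed signals were averaged over a probe's unmarked spots (median spot CV 7.3%, 6.7% and 6.3% for the members' brighter probes) and divided by the array's 75th percentile over 395 probes well above background on all arrays. A probe was well above background when at least 50% of its spots were. Values were set to a floor of 0.0181 (log2 -5.79) or above, and log2 was taken. The brightest probe stood for a miRNA. A miRNA was tested if in at least 1 group all arrays had it well above background, which held for 321.

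Groups were compared in limma 3.58.1 (R 4.3.3) with 1 model over 5 groups, moderated tests and Benjamini-Hochberg adjustment over the tested miRNAs, called at an adjusted p under 0.05. Differences between members used exact permutation tests, adjusted over 3 pairs. The pipeline was tested on simulated data. The number of arrays limits the precision, and p-values set a difference against the spread between these samples.

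The miRNAs named are the 3 members, their opposite strands, their seed relatives, the miR-18 and miR-19 miRNAs, cell type markers, and the 5 most like each member. The members and lists were chosen with earlier results of these data known. RefSeq sequences (GRCm38.p6) matched 19 of 19 names by arm. Alternatives were other scalings, normexp background (offset 50), the mean over probes, total gene signal, the value table, other filters, slide and replicate blocks, and leaving out arrays.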

Additional observations from a re-analysis of the deposited data

Results flagged for a closer look

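For miR-106b at day 28, the first array, at a scaled log2 signal of 1.46, stood apart from the other three, at 1.71 to 1.75. Its gap to the nearest of them was 0.862 of the whole range of that group. A gap of this size can arise by chance, and how often it does was not tested here. On the dimmer probe of miR-106b the same array, at -0.79, lay within the range of the others, -0.86 to -0.52. That array was also the lowest of its group on the brighter probes of miR-93 (-0.79, the others -0.59 to -0.29) and miR-25 (0.74, the others 1.10 to 1.30). Day 28 was the only group with 4 arrays, and groups of 3 cannot be examined this way.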

How the results depend on the processing

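miR-93 was above the uninjured group on all 4 days under each of the alternatives run, with ranges of 0.23 to 1.12, 0.58 to 1.79, 0.11 to 1.02 and 0.25 to 1.21 for the 4 days in order. Its call at day 7 was lost only with the replicate block and slide together (0.99, limma adjusted p = 0.106). The call at day 1 was lost in 5 of 15 alternatives and that at day 28 in 10 of 16, leaving out the dimmer probe. These alternatives were not independent. The other filters and the models with only the compared groups used the same miR-93 values, and total gene signal nearly equals the value table. Differences of miR-106b and miR-25 changed sign in several. Those of miR-25 passed the test at day 7 without scaling and from day 1 to day 7 with median scaling. Replicate numbers did not pair the samples: of 30 pairs of arrays with the same number in different groups, 8 had deviations correlated above 0.1 (median -0.06), and 4 of 15 arrays correlated best with their own number. With the replicate block miR-93 differed by 0.88, 0.83, 0.36 and 0.59 on the 4 days, and it changed no call of the members. No filter on dim miRNAs, or only those on all arrays, changed no call of the members either. The alternatives with dimmer probes were chosen after seeing the data. The dimmer probe of miR-93 had no measured uninjured level, so its values against uninjured, and the pairs that use it, neither support nor weaken a result. The mean over probes, counted among the alternatives above, includes that probe and is therefore no separate check of miR-93. The cause of a change was not tested for any alternative, including those with fewer samples.

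The values that changed sign or call are these, as differences from uninjured for 1 day or between 2 days, and as numbers of miRNAs called. With the percentile over all mouse probes, the log2 differences were -0.47 of miR-106b, 0.24 of miR-93 and -0.48 of miR-25 for day 1, 0.51 of miR-93 for day 28 and 0.27 of miR-106b and 0.43 of miR-93 from day 1 to day 7, and the calls were 2 from day 7 to day 14 and 25 from day 14 to day 28. With median scaling, the log2 differences were -0.49 of miR-106b, 0.23 of miR-93 and -0.49 of miR-25 for day 1, -0.12 of miR-106b and -0.077 of miR-25 for day 14, 0.30 of miR-93 for day 28 and 0.27 of miR-106b, 0.44 of miR-93 and 0.64 of miR-25 from day 1 to day 7, and the calls were 31 from day 14 to day 28. With quantile normalization, the log2 differences were 0.10 of miR-106b for day 7, 0.36 of miR-93 for day 28 and -0.12 of miR-106b and -0.15 of miR-25 from day 14 to day 28. Without scaling, the log2 differences were 1.12 of miR-93 for day 1, 0.91 of miR-106b and 1.27 of miR-25 for day 7, 0.50 of miR-106b and 0.67 of miR-93 from day 1 to day 7 and -0.12 of miR-106b from day 7 to day 14, and the calls were 36 for day 1, 72 for day 14, 78 from day 1 to day 7, 0 from day 7 to day 14 and 0 from day 14 to day 28. With normexp background, the log2 differences were 0.45 of miR-93 for day 28, and the calls were 41 for day 1, 105 for day 7, 82 for day 14, 52 for day 28, 78 from day 1 to day 7, 11 from day 7 to day 14 and 28 from day 14 to day 28. Injured minus uninjured was then -0.36 for miR-106b minus miR-93 and 0.27 for miR-93 minus miR-25. With the mean over probes, the log2 differences were 0.20 of miR-106b for day 7, 0.019 of miR-93 from day 1 to day 7 and -0.020 of miR-106b from day 7 to day 14. With total gene signal, the log2 differences were -0.0065 of miR-106b for day 14, -0.012 of miR-106b and 0.25 of miR-93 for day 28, -0.053 of miR-25 from day 1 to day 7 and -0.0058 of miR-106b and -0.016 of miR-25 from day 14 to day 28, and the calls were 7 from day 7 to day 14 and 28 from day 14 to day 28. In the authors' value table, the log2 differences were 0.30 of miR-93 for day 28 and -0.058 of miR-25 from day 1 to day 7, and the calls were 5 from day 7 to day 14 and 26 from day 14 to day 28. With slide as a fixed block, the log2 differences were 0.87 of miR-93 for day 1, 0.083 of miR-106b for day 7 and 0.57 of miR-93 for day 28, and the calls were 30 for day 1, 92 for day 7, 55 for day 28, 0 from day 7 to day 14 and 28 from day 14 to day 28. With slide as a random block, the calls were 21 from day 7 to day 14. With the replicate block and slide together, the log2 differences were 1.04 of miR-93 for day 1, 0.21 of miR-106b and 0.99 of miR-93 for day 7, 0.70 of miR-93 for day 28 and -0.081 of miR-106b from day 7 to day 14, and the calls were 10 for day 1, 45 for day 7, 21 for day 28, 0 from day 7 to day 14 and 0 from day 14 to day 28. With the replicate block, the calls were 16 from day 7 to day 14. Within slide 2, the log2 differences were 0.57 of miR-93 for day 28, and the calls were 55 for day 28 and 0 from day 14 to day 28. With only the compared groups in the model, the log2 differences were 0.58 of miR-93 for day 28 and -0.47 of miR-93 from day 7 to day 14, and the calls were 44 for day 28 and 61 from day 7 to day 14. With the dimmer probes, the log2 differences were 0.71 of miR-106b for day 1, 0.44 of miR-106b for day 7, 0.54 of miR-106b for day 28, 0.090 of miR-93 from day 1 to day 7 and -0.22 of miR-106b from day 7 to day 14. Injured minus uninjured was then -0.17 for miR-106b minus miR-93, 0.21 for miR-93 minus miR-25 and 0.040 for miR-106b minus miR-25. With the dimmer probe of miR-106b alone, injured minus uninjured was -0.17 for miR-106b minus miR-93 and 0.24 for miR-106b minus miR-25. Leaving out 1 array at a time (leave-one-out) gave 69 to 117 for the number of calls for day 1, -0.049 to 0.33 for miR-106b for day 1, -0.023 to 0.30 for miR-25 for day 1, -0.27 to 0.11 for miR-106b for day 7, -0.087 to 0.29 for miR-106b for day 14, 0.19 to 0.53 for miR-93 for day 14, -0.012 to 0.31 for miR-25 for day 14, 0.41 to 0.74 for miR-93 for day 28, -0.10 to 0.0023 for miR-93 from day 1 to day 7, 1 to 49 for the number of calls from day 7 to day 14, -0.53 to -0.41 for miR-93 from day 7 to day 14, 21 to 55 for the number of calls from day 14 to day 28, -0.56 to -0.47 for miR-106b minus miR-93 and 0.37 to 0.43 for miR-93 minus miR-25. Where 0 miRNAs were called by limma, unadjusted p was under 0.05 for 31 (no scaling, day 7 to day 14), 19 (no scaling, day 14 to day 28), 29 (slide block, day 7 to day 14), 11 and 42 (replicate block and slide, day 7 to day 14 and day 14 to day 28) and 81 (within slide 2). Without the second uninjured array miR-93 at day 14 was 0.53 higher (limma adjusted p = 0.0280) and 69 miRNAs were called at day 1. Without the third uninjured array, miR-93 at day 28 was 0.41 higher (adjusted p = 0.0745). The calls from day 7 to day 14 were 5 and 18 without the second and without the third day 7 array, 1 without the second day 14 array and 21 without the second uninjured array. Those from day 14 to day 28 were 21 and 30 without the first or second day 14 array. Signal over background limits the opposite strands and miR-17, which were not above background, and the dimmer probe of miR-93.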
